A study of Mus musculus with 8 samples.

Results

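The Nedd4-like ubiquitin ligases are the 9 mouse genes Hecw1, Hecw2, Nedd4, Nedd4l, Itch, Wwp1, Wwp2, Smurf1 and Smurf2, and they were followed here through RNA sequencing of brain tissue. They are 9 of 54532 genes in the deposited count table, and all 9 passed the filter on low counts. Hecw2 was picked because its counts were high in the mutant libraries, so its difference between genotypes is a description and carries no test. The other 8 genes were taken as its paralogs and were tested. The groups were 4 libraries labelled Nsun5-KO, from mice meant to lack the RNA methyltransferase gene Nsun5, and 4 wild-type (WT) libraries. All mice were males of 3 months, and the labels' protocols describe 5 mice per genotype from a shared litter, anaesthetised with pentobarbital at 50 mg/kg, of which 4 libraries per genotype were analysed here. The labels give no allele, promoter or deleted exon for the knockout. P-values measure the spread between these libraries, which come from a single litter per the labels.

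Ubiquitin ligases of the HECT class take ubiquitin from an E2 enzyme onto a cysteine of their own and then pass it to a substrate. The Nedd4-like members share a layout of a C2 domain that binds membranes or proteins, WW domains that bind proline-rich motifs in substrates and adaptors, and a C-terminal HECT domain that holds the catalytic cysteine. In neurons, members of the family control surface levels of receptors, ion channels and growth factor receptors, and the growth of axons and dendrites.

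The stretch around the codon of the catalytic cysteine is shown because it is the chemical centre that all members share. Coding sequences were the longest of each gene in GENCODE M21 (build GRCm38, the same assembly as mm10). Each line below gives 51 coding bases, 5′ to 3′ on the coding strand, with the cysteine codon in capitals. Nedd4, the founding member, Wwp2, the other member whose groups did not overlap, and Smurf1, from the Smurf pair, stand beside the Hecw pair.
Hecw2: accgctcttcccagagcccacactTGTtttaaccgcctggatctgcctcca
Hecw1: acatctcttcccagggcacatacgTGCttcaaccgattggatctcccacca
Nedd4: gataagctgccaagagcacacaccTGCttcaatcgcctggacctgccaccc
Wwp2: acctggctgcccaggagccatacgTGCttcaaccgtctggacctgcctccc
Smurf1: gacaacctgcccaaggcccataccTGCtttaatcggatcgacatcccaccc
Hecw2 and Hecw1 match at 39 of the 51 bases, within a range of 30 to 42 over the 36 pairs of members. Nedd4 with Smurf2 and Itch with Wwp2 also match at 39, so this window does not set the Hecw pair apart. The codon is TGC in 6 members and TGT in 3. In Hecw2 it lies at chr1:53813321-53813323 on the minus strand, and in Hecw1 at chr13:14230748-14230750 on the minus strand. In both genes it sits within exon 29 of 29, whereas in the other 7 members an intron splits it over 2 exons. Over the last 900 coding bases, which lie in the HECT domain, Hecw1 and Hecw2 were 77.2% identical, at the top of a range of 59.6% to 77.2%. The next pairs were Itch with Wwp1 at 76.9% and Smurf1 with Smurf2 at 76.1%. No pair shared a run of 50 bases, and the longest shared runs were 13 to 21 bases.

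The 8 libraries held 15642086 to 17829523 counts, with 22210 to 22944 genes detected in each. RNA of the targeted gene Nsun5, on chromosome 5, was no lower under the mutant label. Libraries labelled Nsun5-KO had 102, 124, 83 and 110 counts of it, against 91, 82, 103 and 109 counts in WT libraries, a log2 fold change of 0.13 (SE 0.15, edgeR adjusted p = 0.817). Reads outside a deleted part would still be counted, and that part is not given in the labels. The groups are therefore called by their labels throughout. Along the first principal component, which held 25.7% of the variance, WT libraries 1 and 2 lay apart from the other 6 libraries, at -29.7 and -36. The libraries labelled Nsun5-KO lay at 5.26 to 23.8, all above WT libraries 3 and 4, at 2.49 and 1.75. Counts of the cerebellar genes Gabra6 and Pcp2 reached 30 and 19 in WT libraries and 1 and 4 in libraries labelled Nsun5-KO. Both genes were at 0 in at least 1 library, although the design text names the whole brain.

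Hecw2 encodes a ligase that is expressed in brain and whose human variants cause a neurodevelopmental disorder. Its gene spans chr1:53806876-54195168 on the minus strand in mm10. Its CPM, the count scaled to a fixed library total, was 89.57, 86.54, 96.37 and 78.91 in the libraries labelled Nsun5-KO, against 49.14, 57.03, 57.0 and 67.78 CPM in WT libraries. Every library labelled Nsun5-KO lay above every WT library, and the narrowest gap was between KO library 4 and WT library 4. The means were 87.85 ± 7.24 CPM in libraries with the Nsun5-KO label and 57.74 ± 7.66 CPM in WT libraries (SD, n = 4 each), a ratio of 1.52 and a log2 fold change of 0.63, or 0.53 without WT libraries 1 and 2. Over all 16062 genes tested, 1.13% had a fold change at least as high. That is how the gene was chosen, so nothing is read from it.

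**Figure D1:**
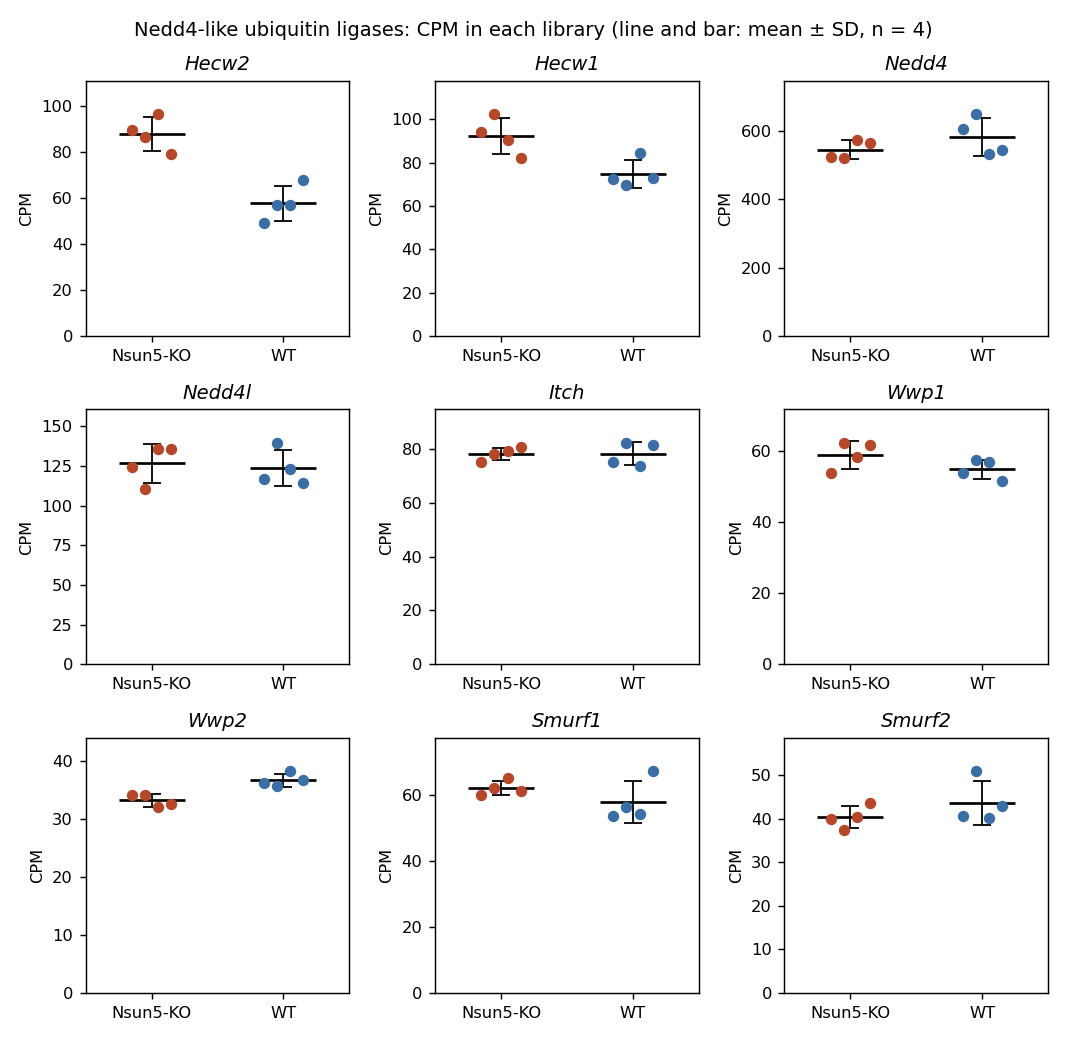
CPM of each Nedd4-like ligase in each library, with libraries labelled Nsun5-KO left of WT and the mean with SD of 4 libraries. Hecw2 sits between 78.91 and 96.37 CPM in libraries labelled Nsun5-KO, above the WT range of 49.14 to 67.78 CPM, and Wwp2 is the one other member whose groups do not overlap.

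Hecw1, the paralog nearest to Hecw2, encodes a ligase expressed mainly in neurons in humans. Its gene spans chr13:14226438-14523228 on the minus strand. Its values were 94.2, 102.4, 90.47 and 82.39 CPM in libraries labelled Nsun5-KO, against 72.4, 69.75, 84.54 and 72.85 CPM in WT libraries. 3 of the 4 libraries labelled Nsun5-KO lay above every WT library, and KO library 4 lay below WT library 3, so the groups overlapped. The mean was 92.38 ± 8.33 CPM in libraries with the Nsun5-KO label and 74.89 ± 6.58 CPM in WT libraries (SD, n = 4 each), a ratio of 1.23. The log2 fold change was 0.33 (SE 0.08, 95% interval 0.15 to 0.51). In edgeR it had an unadjusted p of 0.00177 but an adjusted p of 0.313, and it was not called; in DESeq2 the adjusted p was 0.0583. Without WT libraries 1 and 2, which lay apart, the log2 fold change was 0.26 (edgeR adjusted p = 0.665). In the fit of all libraries, a fold change at least as high was found in 5.55% of genes tested.

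None of the 8 paralogs was called by edgeR at an adjusted p below 0.05, against 0% of all 16062 genes tested. DESeq2 also called 0 of the 8, against 0.663% of the 14186 genes for which it gave such a value. By unadjusted edgeR p, 1 of the 8 was below 0.05, Hecw1, on the higher side. The same held for 10.4% of all genes in either direction, 5.3% higher and 5.05% lower. 5 of the 8 had a higher and 3 a lower fitted value in the libraries labelled Nsun5-KO (Itch, among the 5, was at -0.001 with library totals only), against 48.6% of all genes with a value above 0. The median log2 fold change of the 8 was 0.042, beside -0.005 over all genes tested. Groups that did not overlap in CPM were found for 1 of the 8, Wwp2, which was lower, against 5.35% of all genes in either direction and 3.47% that were lower.

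Wwp2, at chr8:107436365-107558595 on the plus strand, encodes a ligase of the Wwp pair and carries the microRNA gene Mir140 in its locus. It had 34.17, 34.15, 32.04 and 32.59 CPM in libraries labelled Nsun5-KO, against 36.17, 35.67, 38.26 and 36.71 CPM in WT libraries. All 4 values labelled Nsun5-KO lay below all WT values, though the step between the groups was small. Wwp2 averaged 33.24 ± 1.09 CPM in libraries with the Nsun5-KO label and 36.7 ± 1.12 CPM in WT libraries (SD, n = 4 each), a ratio of 0.906. The log2 fold change was -0.12 (SE 0.07, 95% interval -0.27 to 0.03, edgeR adjusted p = 0.584). Its partner Wwp1, at chr4:19608303-19708993 on the minus strand, ran from 53.79 to 62.38 CPM in the libraries labelled Nsun5-KO, against 51.62 to 57.41 CPM in WT libraries, with a log2 fold change of 0.13 (SE 0.07, edgeR adjusted p = 0.577).

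Nedd4, at chr9:72662346-72749852 on the plus strand, regulates receptor trafficking and dendrite growth in mouse neurons. It had 523.0, 520.3, 574.9 and 564.9 CPM in libraries labelled Nsun5-KO, against 605.9, 648.9, 531.2 and 544.2 CPM in WT libraries. The groups overlapped, and WT libraries 1 and 2 were the 2 highest. Its log2 fold change was -0.07 (SE 0.08, edgeR adjusted p = 0.818), with -0.012 without WT library 2 and 0.053 without WT libraries 1 and 2. Nedd4l, on the plus strand at chr18:64887705-65217831, is best known for lowering epithelial sodium channels at the cell surface. It ran from 110.3 to 135.8 CPM in the libraries labelled Nsun5-KO, against 114.5 to 139.6 CPM in WT libraries, with a log2 fold change of 0.06 (SE 0.09, edgeR adjusted p = 0.865). Leaving out 1 library at a time gave Nedd4l 0.018, without WT library 4, to 0.13, without Nsun5-KO library 2 or WT library 2. Itch, whose loss gives the itchy mouse with inflammation, lies at chr2:155133509-155226855 on the plus strand. Itch averaged 78.07 ± 2.31 CPM in the libraries labelled Nsun5-KO and 78.09 ± 4.35 CPM in WT libraries (SD, n = 4 each), with a 95% interval of -0.12 to 0.17 on its log2 fold change of 0.02, which was -0.001 with library totals only and -0.004 without WT library 3. The groups overlapped for both Nedd4l and Itch.

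Smurf1 and Smurf2 were named for ubiquitinating Smad proteins of the TGF-beta and BMP pathways. Smurf1 lies at chr5:144876495-144965847 and Smurf2 at chr11:106820066-106920715, both on the minus strand. Smurf1 ran from 60.08 to 65.12 CPM in the libraries labelled Nsun5-KO, against 53.7 to 67.21 CPM in WT libraries, with WT library 4 the highest of all 8. Smurf2 ran from 37.5 to 43.52 CPM in the libraries labelled Nsun5-KO, against 40.16 to 50.89 CPM in WT libraries. Smurf1 had a log2 fold change of 0.13 (SE 0.08) and Smurf2 of -0.09 (SE 0.09), and neither was called. Single libraries moved both values, since Smurf1 was at 0.20 without WT library 4 and Smurf2 at -0.005 without WT library 2. Without WT libraries 1 and 2, Smurf1 was at 0.064 and Smurf2 at -0.012. Over the 7 members other than Hecw1 and Hecw2, the 95% intervals lay between -0.29 and 0.30 on the log2 scale, which are folds of 0.816 and 1.24, so changes beyond that size fall outside all 7 intervals.

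**Figure D2:**
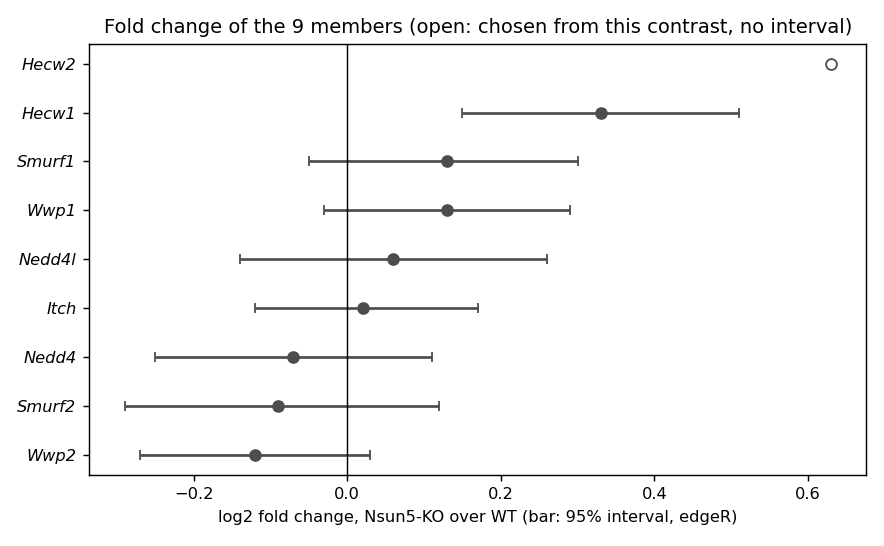
Log2 fold change, libraries labelled Nsun5-KO over WT, of each member from edgeR, with 95% intervals for the 8 paralogs and no interval for Hecw2, which was chosen from this contrast. Hecw2 is at 0.63 and Hecw1 at 0.33, and the other 7 members are between -0.12 and 0.13.

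Levels of different genes were compared in FPKM, which divides by the exonic length that the deposited table gives each gene. That length was 14382 bases for Nedd4l and 6453 for Wwp1. The transcripts used above for their coding sequences held 3034 and 6440 bases. The order of members and the folds between them therefore depend on the length used, not at close levels alone. No other length was tried, and the p-values below do not cover the choice of length. By the deposited length, Nedd4 had the highest level of the family, 51.1 ± 4.19 FPKM over the 8 libraries (SD). It stood 5.43-fold above Smurf1, the next member at 9.41 ± 0.825 FPKM, in 8 of 8 libraries (exact two-sided sign-flip permutation test, adjusted p = 0.0312 over 8 neighbouring pairs). Smurf1, Wwp1, Nedd4l and Itch then followed from 9.41 down to 7.992 FPKM, and none of the neighbouring pairs among them differed beyond its spread, with adjusted p from 0.0875 to 0.789 in the same exact test. Itch lay above Smurf2, at 6.77 ± 0.66 FPKM, in 8 of 8 libraries (exact test, adjusted p = 0.0312). Smurf2 and Hecw1, at 5.668 ± 0.819 FPKM, did not differ beyond their spread in that test (adjusted p = 0.0875), with a mean log2 difference in FPKM of 0.06 in the libraries labelled Nsun5-KO and 0.47 in WT libraries. By that length the lowest was Wwp2, at 3.915 ± 0.191 FPKM. Hecw2 stood above Wwp2 by a mean of 0.85 (log2 FPKM) in the libraries labelled Nsun5-KO and by 0.10 in WT libraries, in 4 of 4 and 3 of 4 libraries.

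Hecw2 moved within that order between the genotypes, from the values that chose it. It ranked 6 of 9 by mean FPKM in the libraries labelled Nsun5-KO, at 6.815 ± 0.629 FPKM, and 8 of 9 in WT libraries, at 4.385 ± 0.569 FPKM. Hecw2 exceeded Hecw1 in 3 of 4 libraries labelled Nsun5-KO and in 1 of 4 WT libraries. Hecw2 made up 6.23 ± 0.507% of the summed FPKM of the family in the libraries labelled Nsun5-KO and 4.13 ± 0.622% in WT libraries (SD, n = 4 each). The share of Nedd4 was 45.7 ± 0.884% in libraries with the Nsun5-KO label and 49 ± 2.42% in WT libraries. The summed FPKM of all 9 members overlapped between the groups, at 104.3 to 115.2 in the libraries labelled Nsun5-KO and 100.7 to 115.6 in WT libraries.

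**Figure D3:**
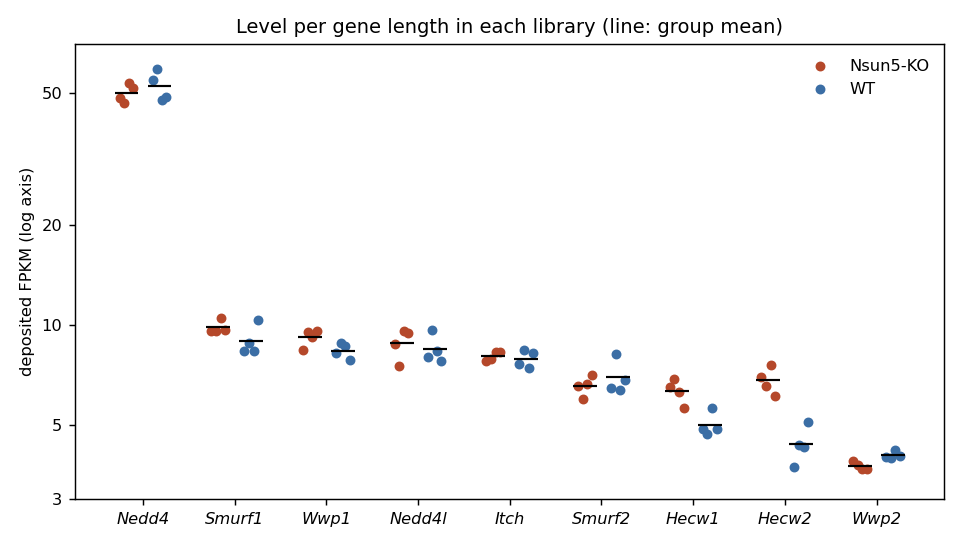
FPKM of the 9 members on a log axis in each library, in order of their mean over all 8 libraries, with libraries labelled Nsun5-KO left of WT. Nedd4 stands alone near 51.1 FPKM, and the other 8 members lie between 3.915 and 9.41 FPKM on average.

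Marker lists of cell types did not all lie on the same side of WT. The pan-neuronal and cortical excitatory lists lay on the side of Hecw1 and Hecw2, and the inhibitory neuron and hypothalamic lists on the other. The 8 pan-neuronal markers summed to 6908 to 7554 CPM in the libraries labelled Nsun5-KO, against 5789 to 6463 CPM in WT libraries, and all 8 had a fitted value above WT, 5 of them with an unadjusted edgeR p below 0.05, against 5.3% of all genes on that side. The 8 cortical excitatory markers summed to 1496 to 1988 CPM with the Nsun5-KO label, against 1159 to 1533 CPM in WT libraries, with all 8 above WT and 6 of them at an unadjusted p below 0.05. None of these markers was at 0 in a library, and edgeR called no marker of any list after adjustment. The 8 oligodendrocyte markers summed to 4476 to 6373 CPM in the libraries labelled Nsun5-KO, against 6989 to 7748 CPM in WT libraries, with 7 of 8 lower at an unadjusted p below 0.05, against 5.05% of all genes. Ependymal and choroid plexus markers, 8 of 8 with lower fitted values, summed to 62.99 to 1161 CPM in the libraries labelled Nsun5-KO, against 336.9 to 1161 CPM in WT libraries. Hypothalamic markers, with 8 of 13 tested and all 8 below WT, summed to 16.03 to 25.97 CPM in the libraries labelled Nsun5-KO, against 33.6 to 169.6 CPM in WT libraries, and Sim1, Six6, Hcrt, Pmch and Oxt were at 0 in at least 1 library. The 7 inhibitory neuron markers summed to 904.1 to 1214 CPM in the libraries labelled Nsun5-KO, against 1114 to 1341 CPM in WT libraries, with 3 fitted values above WT and 4 below and a median log2 fold change of -0.17. The oligodendrocyte precursor, astrocyte, microglia, endothelial and thalamic lists had medians of -0.20 to -0.04. Medians were 0.20 for pan-neuronal, 0.45 for cortical excitatory, -0.40 for oligodendrocyte, -0.89 for ependymal and choroid plexus and -1.86 for hypothalamic markers. Of 4 cerebellar markers 2 were tested, both below WT, with a median of -0.52. The cerebellar sums overlapped, at 6.955 to 17.51 CPM with the Nsun5-KO label and 10.65 to 30.62 CPM in WT libraries. In bulk tissue, fewer cells of a type and less RNA per cell cannot be told apart. The hypothalamic sums within WT and the ependymal sums within the Nsun5-KO label also differed widely between libraries. Whether all libraries held the same brain regions was not tested.

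Relative to the summed pan-neuronal markers, Hecw1 differed by 0.08 on the log2 scale, Nsun5-KO label minus WT, against 0.30 in CPM, and the groups overlapped. Relative to the cortical excitatory markers the Hecw1 difference was -0.02. For Hecw2 the difference relative to pan-neuronal markers was 0.39, against 0.61 in CPM. Its ratios were 0.30 to 0.54 in the libraries labelled Nsun5-KO and -0.21 to 0.20 in WT libraries, where 0 is the WT mean. Relative to the cortical excitatory markers the Hecw2 difference was 0.29, with overlapping groups. Hecw2 was chosen for its high values with the Nsun5-KO label, so nothing is read from the difference that remains. Relative to the oligodendrocyte markers, whose sums were lower with the Nsun5-KO label, the difference was 0.76 for Hecw1 and 1.07 for Hecw2, without overlap. These ratios were chosen after seeing the data, and the part of the cell make-up in the Hecw1 and Hecw2 values was not tested.

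**Figure D4:**
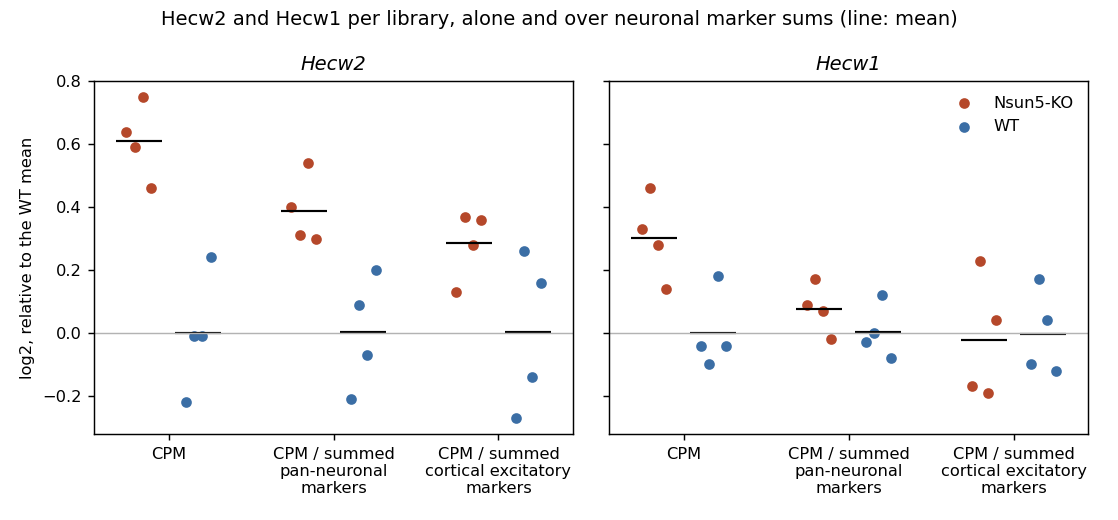
Log2 level of Hecw2 and Hecw1 in each library, as CPM and relative to the summed pan-neuronal and cortical excitatory markers, centred on the WT mean, with libraries labelled Nsun5-KO left of WT. The difference between groups is 0.61, 0.39 and 0.29 for Hecw2 and 0.30, 0.08 and -0.02 for Hecw1.

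Partners of the family were read from 6 lists with 87 tested genes. Of these, edgeR called 0 and DESeq2, which gave no adjusted p for Trp73, called 1. In DESeq2 the share was 0.663% of all genes with an adjusted p. The gene that DESeq2 called was Sgk1, the kinase that phosphorylates Nedd4l and thereby limits its action on sodium channels. Sgk1 had 106.2, 107.2, 130.8 and 134.9 CPM in libraries labelled Nsun5-KO, against 58.49, 69.36, 85.77 and 94.14 CPM in WT libraries. The groups did not overlap, as in 1.88% of all genes in that direction. Its log2 fold change was 0.67 (SE 0.15), with an adjusted p of 0.307 in edgeR and 0.0046 in DESeq2. By unadjusted edgeR p, 6 of the 87 were higher and 5 lower below 0.05, near the 5.3% and 5.05% of all genes. The 24 adaptors and regulators, Sgk1 among them, had 15 fitted values above WT and 9 below, with a median of 0.053. Spg20, which in human cells recruits Itch and other members, had a log2 fold change of -0.27 (edgeR adjusted p = 0.406). Its groups met closely, at 32.82 to 42.18 CPM in the libraries labelled Nsun5-KO and 42.7 to 50.08 CPM in WT libraries. Of the 87 genes 2 lay lower without overlap, against 3.47% of all genes. Arrdc4, an arrestin-like adaptor of the family, was at -0.31 (edgeR adjusted p = 0.471).

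Among the substrates, 1 of 13 membrane proteins was lower at an unadjusted p below 0.05, against 5.05% of all genes, the AMPA receptor subunit Gria1 (log2 fold change -0.27, edgeR adjusted p = 0.436), and the list had a median of 0.092. Of the 12 TGF-beta and BMP substrates, 6 had values above and 6 below WT, with a median of 0.000. Prickle1, a planar polarity protein that Smurf ligases target in mouse, was at 0.42 (edgeR adjusted p = 0.357), and Smad3, a transducer of TGF-beta, at 0.23 (edgeR adjusted p = 0.412). Of 10 tested cytosolic and nuclear substrates 8 had values below WT. Trp73, the p53 relative that Hecw2 and Itch bind in human cells, had 14, 8, 17 and 8 counts in libraries labelled Nsun5-KO, against 32, 24, 27 and 33 in WT libraries. Its log2 fold change was -1.27 (SE 0.33, edgeR adjusted p = 0.313), at low counts, and DESeq2 gave it no adjusted p.

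Other HECT ligases, outside the Nedd4-like family, had fitted values above WT for 15 of 18 genes, against 48.6% of all genes, with a median of 0.096. At an unadjusted p below 0.05, where 5.3% of all genes were higher, there were 3 of the 18, Herc6 at 0.47, Hectd3 at 0.19 and Herc3 at 0.18 on the log2 scale, with edgeR adjusted p from 0.406 to 0.461. Herc6 is the ligase for the ubiquitin-like protein Isg15 in mouse. The E1 and E2 enzymes that supply ubiquitin had 3 of 10 values above WT and a median of -0.029. Ube2d1, an E2 enzyme, was the 1 of the 10 that was lower at an unadjusted p below 0.05, at -0.23 (edgeR adjusted p = 0.412). No list member was called by edgeR, so no direction is given for any list.

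**Figure D5:**
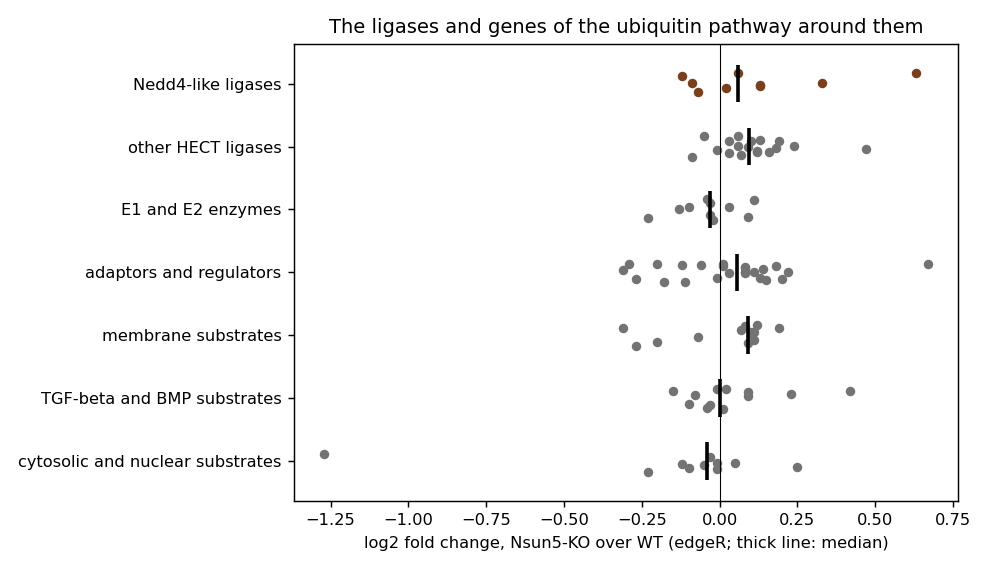
Log2 fold change, libraries labelled Nsun5-KO over WT, of each tested gene in the Nedd4-like family and in 6 lists of partners, with the median of each list marked. Hecw2 is part of the family row and was chosen from this contrast; Sgk1 at 0.67 and Trp73 at -1.27 are the farthest partners.

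The genes whose levels most resembled those of Hecw2 were ranked among 13583 protein-coding genes by correlation of log2 CPM over the 8 libraries, as a description with no test. The points share the genotype difference for which Hecw2 was chosen. Among the highest were Pcsk2, which processes neuropeptide precursors (r = 0.979, with the same rank order over all 8 libraries, and r = 0.967 without the 2 farthest), Numb, an adaptor of Notch signalling (r = 0.973), Vipr1 (r = 0.964) and Plpp7 (r = 0.962). Hecw1 ranked 431 with r = 0.805, and Smurf1 ranked 513 with r = 0.790 (0.585 without the 2 farthest). With the genotype means taken out, the highest were Plpp7 (r = 0.977), Pcdha12, Pcsk2, Srsf7 and Clba1 (r = 0.963). The Pcdha12 locus shares exons with other protocadherins, so its counts are uncertain. Of the paralogs, Smurf1 ranked highest, at r = 0.833, rank 165, but at 0.599 without WT libraries 4 and 1, the 2 farthest. Hecw1 was at r = 0.120, rank 5476, and the rest ranked between 3028 and 11412.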

How the data were processed

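RNA from brain tissue was sequenced in 4 libraries labelled Nsun5-KO and 4 WT libraries. TRIzol extraction and a NEBNext Ultra RNA kit were used, per the labels' protocols. Reads were aligned with HISAT2 2.0.5 to build mm10 (from the submitters' processing notes). Which program counted the reads, with which annotation and strand setting, is not given in the sources used here. Counts deposited by the authors are whole, unnormalised reads per gene, and the deposited FPKM values are those counts per gene length and per a constant of 0.981 to 1.022 times the library total. A member is overlapped by 17 other genes of the deposited table, and none of them had more than 20 counts in a library (Gm36936, in Nedd4). How reads in overlaps were assigned is not known.

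Counts were filtered with filterByExpr (16062 genes left) and scaled with TMM. Genotype was tested with the edgeR 4.0.16 robust quasi-likelihood test in R 4.3.3, with no covariate and Benjamini-Hochberg adjustment over all genes tested; genes were called at an adjusted p below 0.05. Coding sequences came from GENCODE M21. Neighbouring levels were compared by an exact sign-flip test over 256 patterns, smallest p 0.00781. Alternatives included DESeq2 1.42.0, limma 3.58.1 (voom, and log2 of FPKM plus 1 or 0.1), other scalings and filters, a replicate block and left-out libraries. The test was run on simulated counts before the real ones. The members and lists were chosen with earlier results of these data known. Named genes were all members, Nsun5, the 3 of each list with the smallest p, the 5 most like Hecw2 and neighbouring or overlapping genes; 1 gene that this rule takes is not reported here.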

Additional observations from a re-analysis of the deposited data

How the results depend on the processing

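Of all genes tested, edgeR called 0 and DESeq2 called 94. Without the low-count filter edgeR called 68, and leaving out 1 library in turn gave 0 to 2, with 2 without Nsun5-KO replicate 4; the cause of these differences was not tested. Among the 8 paralogs the count of calls was 0 in each setting run. Hecw1 kept a positive log2 fold change in the count and FPKM fits, with 0.28 to 0.39 (edgeR adjusted p 0.136 to 0.624) over the left-out libraries, 0.26 (edgeR adjusted p = 0.665) without WT replicates 1 and 2 and an edgeR adjusted p of 0.0702 without the low-count filter. Hecw1 was at -0.02 relative to the cortical excitatory markers and at 0.76 relative to the oligodendrocyte markers, ratios chosen after seeing the data. Hecw2 was 0.56 to 0.71 over the left-out libraries and 0.53 without WT replicates 1 and 2. Nedd4 turned to 0.053 without WT replicates 1 and 2. Itch was -0.001 with library totals only and -0.004 to 0.051 over the left-out libraries. Ranks kept their place for 7 to 9 of the 9 members over the left-out libraries, and for 6 in the libraries labelled Nsun5-KO alone.

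Same-numbered libraries did not deviate together (r = -0.115, -0.213, -0.0411 and 0.0631). Differently numbered ones gave r from -0.167 to 0.182, a similar range. These correlations therefore cannot decide whether the numbers pair the libraries. With the replicate number as a block, Hecw1 had 0.33 (edgeR adjusted p = 0.588), Hecw2 0.64, and 0 genes were called.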

Other observations

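The genes next to the members on the chromosome were also read, as values with no explanation. Of 18 neighbouring protein-coding genes, 1 had an unadjusted edgeR p below 0.05, against 10.4% of all genes, Arpc1a beside Smurf1, at -0.14 on the log2 scale (edgeR adjusted p = 0.458). Beside Hecw2, Stk17b, 21.7 kb away, was at 0.20 (edgeR adjusted p = 0.687) and Gtf3c3, 201 kb away, at 0.05 (edgeR adjusted p = 0.853). Beside Hecw1, Arid4b was at -0.02 and Mrpl32 at -0.14, with edgeR adjusted p of 0.954 and 0.748. Smurf1 lies 9.5 Mb from Nsun5 on chromosome 5.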
